A study of Mus musculus with 745 samples.

Results

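Large-artery-like endothelial cells were the 60 cells, among 703 kept single brain endothelial cells of the mouse, with the highest score of 6 genes: Fbln5, Cytl1, Mgp, Clu, Pi16 and Fhl1. They were chosen by each gene's counts per 1000000 counts of the cell (CPM). Of 745 cells, 42 with Vtn, a gene of pericytes, at 500 CPM or more were left out. The score was the mean of log2(CPM + 1) over the 6 genes. The members made up 8.53% of the kept cells (exact binomial 95% interval 6.58% to 10.8%, counting error only). They are compared here with the other 643 kept cells and with 120 arteriolar cells, which had the highest score among those 643 of Bmx, Vegfc, Sema3g, Efnb2, Hey1, Gja4, Gja5 and Gkn3. The remaining 523 kept cells were in neither class.

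The endothelium of the brain changes in steps along the vessel, from large artery to arteriole, capillary and vein. Endothelial cells of large arteries sit on an elastic layer and release nitric oxide and endothelin to the smooth muscle around them. Those of capillaries carry most of the solute transporters and uptake receptors of the blood-brain barrier.

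All cells came from 3-month-old mice and were sorted as brain endothelial cells by FACS after dissociation of the tissue. The labels name no treatment. Strain, sex and the sort's antibodies were not stated in the sources used here. The cell titles divide the cells into 3 sets, Young1, Young2 and AY_Y3. No label tells if 1 set stands for 1 animal, pooled animals or 1 plate, so p-values measure only the spread between these 3 sets, which may be technical. Where 3 values follow each other below, they are for Young1, Young2 and AY_Y3 in this order.

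The members numbered 16, 17 and 27, which was 7.58%, 6.97% and 10.9% of the kept cells of each set. Their median depth was 533398 counts per cell, against 613688 in the other kept cells, and all kept cells had 52819 to 2421434 counts. Members had a count in a median of 2431 genes, and the others in 2142. With every cell thinned to 50000 counts the medians were 1909.5 and 1662 genes. Mitochondrial genes took 3.31% of the members' counts and 3.78% of the others'. The number at the end of the title, read here as a plate column, was 11 or more in 70% of members (13 of 16, 8 of 17 and 21 of 27) and in 41.99% of the others. Results in the cells of columns 1 to 10 and of column 11 and up alone are given at the end. No 2 cells had identical counts.

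Of the 6 score genes, 4 had an entry in RefSeq's promoter table, and their windows are shown because these genes define the members. Each window is the 250 bases before the gene's most upstream start in RefSeq's table for GRCm38.p6, read 5′ to 3′ on the gene's strand. The Fbln5 window is chr12:101819120-101819369 on the minus strand. The windows of Cytl1 (chr5:37735269-37735518), Pi16 (chr17:29318632-29318881) and Fhl1 (chrX:56779433-56779682) are on the plus strand. Capitals mark exact matches, on either strand, to CACCC, the core that KLF factors bind, or to TGGGAA, the core that RBPJ binds.
Fbln5: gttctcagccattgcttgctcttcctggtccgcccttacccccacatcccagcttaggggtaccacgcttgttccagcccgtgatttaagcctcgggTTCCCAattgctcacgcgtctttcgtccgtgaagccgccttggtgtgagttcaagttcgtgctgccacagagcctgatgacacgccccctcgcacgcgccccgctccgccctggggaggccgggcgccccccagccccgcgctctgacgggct
Cytl1: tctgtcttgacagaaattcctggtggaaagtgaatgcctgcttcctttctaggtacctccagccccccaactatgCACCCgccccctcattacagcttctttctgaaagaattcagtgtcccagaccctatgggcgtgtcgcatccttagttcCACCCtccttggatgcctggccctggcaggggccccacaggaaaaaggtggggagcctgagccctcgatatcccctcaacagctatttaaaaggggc
Pi16: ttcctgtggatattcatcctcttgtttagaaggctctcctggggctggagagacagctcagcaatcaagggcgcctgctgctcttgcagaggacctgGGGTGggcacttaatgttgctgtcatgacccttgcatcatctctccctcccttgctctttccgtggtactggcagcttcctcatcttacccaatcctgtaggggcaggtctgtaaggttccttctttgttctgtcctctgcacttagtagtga
Fhl1: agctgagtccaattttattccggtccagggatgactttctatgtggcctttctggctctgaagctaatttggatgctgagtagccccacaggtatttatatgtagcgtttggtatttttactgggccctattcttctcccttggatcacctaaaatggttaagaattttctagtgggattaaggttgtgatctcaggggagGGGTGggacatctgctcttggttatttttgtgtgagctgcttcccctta
Cytl1 held CACCC at 2 places, Pi16 and Fhl1 held it at 1 place each, and Fbln5 held 1 TGGGAA, here on the opposite strand. Of 32851 windows of this length in the table, 52.01% held CACCC and 21.6% held TGGGAA, so either match was common. ACAAT, the core that SOX factors bind, was searched too and was in none of the 4 windows.

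The members' scores ran from 4.53 to 10.5 with a median of 6.88. Just inside the limit the scores were 4.94, 4.84, 4.68, 4.62 and 4.53, and just outside they were 4.47, 4.43, 4.35, 4.08 and 4.07. The scores thus ran on without a gap at the limit. Of the 60 members, 17 had a count of 3 of the score genes, 24 of 4, 17 of 5 and 2 of all 6. Among the other cells, 502 had none of them, 95 had 1, 40 had 2 and 6 had 3. Of the 42 cells left out for Vtn, 0 reached the members' limit, which allows a share of up to 7.14% (3 of 42, the limit used for counts of 0), and the highest score there was 3.35. These values chose the members and are given as a description, with no test.

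**Figure D1:**
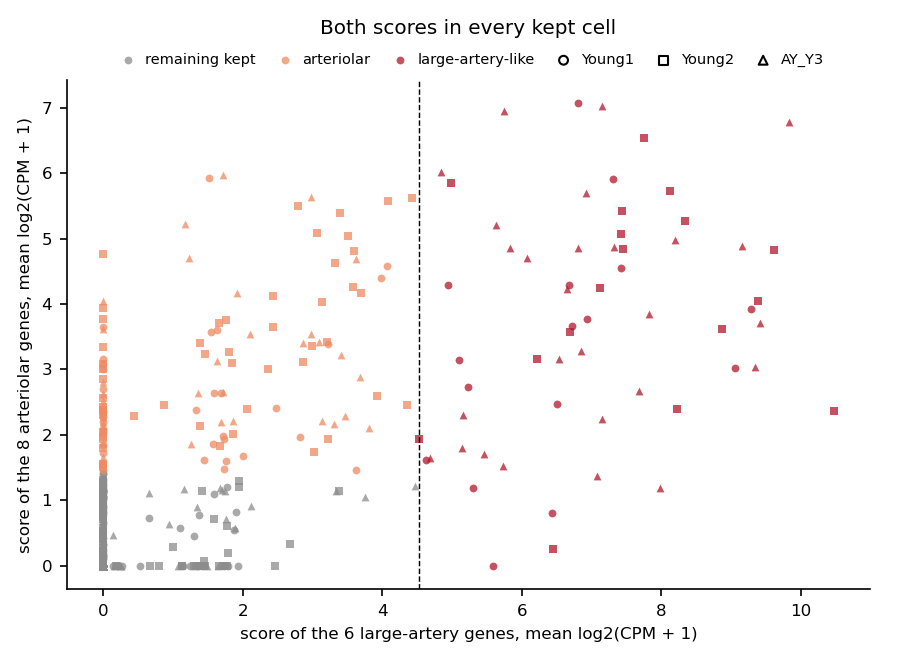
Score of the 8 arteriolar genes (vertical axis) against score of the 6 large-artery genes (horizontal axis), both as mean log2(CPM + 1), for each of the 703 kept cells, with the shape of a point giving the set. The dashed line at 4.53 is the lowest member's score, and 54 of the 60 members also lie at or above the lowest arteriolar cell on the vertical axis.

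Mgp, matrix Gla protein, which holds back calcification of the artery wall, was the second most widespread score gene, with a count in 90% of members. Its counts summed over the members of a set came to 1632, 1789 and 3985 CPM. Arteriolar cells carried it as well, at 560.2, 744 and 767 CPM and in 48.3% of cells, against 6.12% of the remaining cells. Clu, the secreted chaperone clusterin, was in 98.3% of members at 3289.8, 2982 and 3797 CPM, in 33.3% of arteriolar cells and in 5.35% of the remaining cells. Mgp and Clu were thus shared along the arterial side.

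Fbln5, fibulin-5, which binds elastin and helps to build elastic fibres, was at 757, 1384 and 1152 CPM in members and at 1.46, 14 and 0 CPM in arteriolar cells. It had a count in 73.3% of members, 3.33% of arteriolar cells and 0.765% of the remaining cells. Pi16, peptidase inhibitor 16, was at 1143, 694 and 493 CPM in members and 3.25, 9.46 and 154.9 CPM in arteriolar cells, AY_Y3 being the highest there. It had a count in 63.3% of members, 6.67% of arteriolar cells and 0.574% of the remaining cells. Fhl1, a protein made of LIM domains, was at 457, 711 and 388 CPM and in 65% of members, against 0.853, 19.5 and 5.28 CPM and 6.67% of arteriolar cells and 1.34% of the remaining cells. Choosing the members by these genes lowers them in the other cells. Cytl1, a small secreted protein, was the rarest: 43.8, 158.6 and 108.6 CPM, in 10 members and 1 of the other 643 cells.

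Cells differed in depth, so shares were also taken with each cell thinned to 50000 counts. Fbln5 then had a count in 71.7% of members and 0.311% of the others, Clu in 98.3% and 10.1%, and Cd9, a gene outside the score, in 98.3% and 30%. Co-detection within the members was uneven, partly because a score over the limit needs several of the 6 genes. All 10 members with Cytl1 also had Fbln5, Mgp and Clu, 8 also had Fhl1, and 3 also had Pi16. Fbln5 and Pi16 occurred together in 29 members, Fbln5 alone of this pair in 15, Pi16 alone in 9, and neither in 7. The plot of the members cell by cell shows this mosaic.

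**Figure D2:**
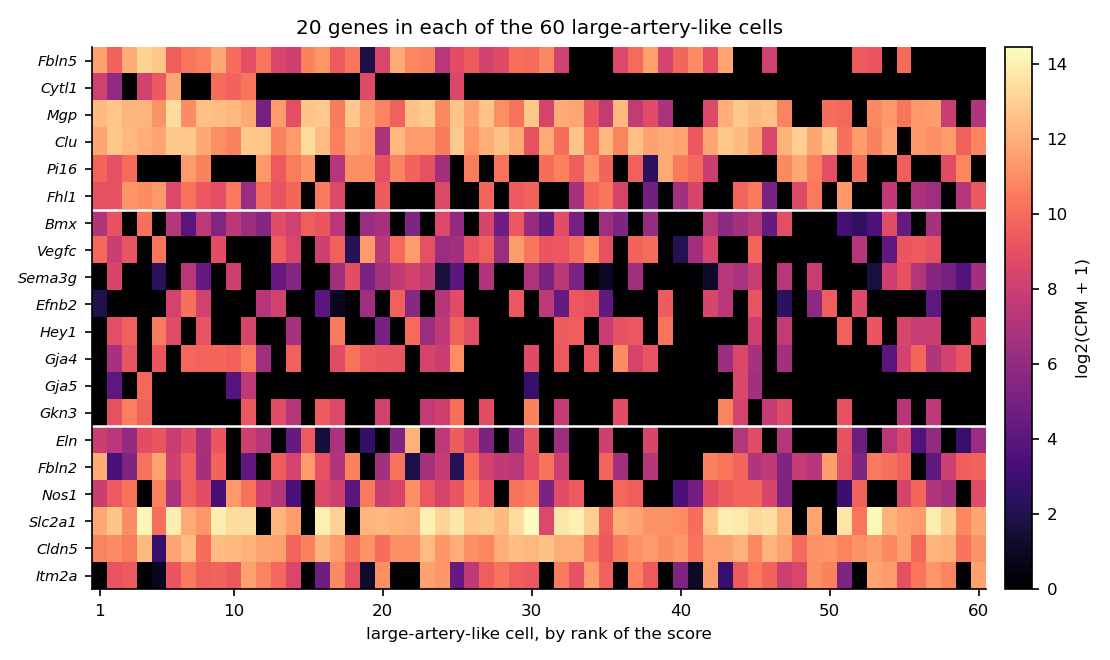
Heat map of log2(CPM + 1) of 20 genes (rows) in each of the 60 members (columns, by rank of the score): the 6 score genes on top, the 8 arteriolar score genes in the middle, and 6 other genes below. Clu fills nearly every column (98.3% of members), whereas Cytl1 is in 10 columns and Pi16 is missing from 22.

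The endothelial label held: the 14 general endothelial genes, among them Cldn5, Pecam1 and Ly6c1, summed to 24844, 23058 and 32261 CPM in members and 28802, 26473 and 29698 CPM in the other cells. All 60 members reached 1000 CPM on this sum, and so did all 643 other cells, so this limit told no cells apart. The arterial label held as well: the 26 other arterial markers summed to 22158 ± 655 CPM in members (SD, n = 3 sets), 16295 ± 1995 CPM in arteriolar cells and 7044 ± 602 CPM in the remaining cells. That order was the same in each set. The sum leans on its most abundant genes, Slc6a6 and Tm4sf1, and results for single markers are given below. No marker in the lists separates a large artery from a small one other than the score genes, so the size of the vessel rests on them.

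Markers of other vessel-wall and brain cells were checked in members. The 15 smooth muscle markers summed to 1829, 1135 and 436 CPM in members and 184.01, 277 and 80.5 CPM in the other cells, with 14 of 15 detected in members and Actg2 at 0. They reached 1000 CPM in 7 of 60 members and 23 of 643 others, and 1 member held 43.8% of the members' smooth muscle counts. The 10 pericyte markers summed to 88.1 to 367 CPM in members and 333 to 455 CPM in the others, with Kcnj8, Abcc9 and Atp13a5 at 0 in members. The 10 astrocyte markers summed to 21.8 to 783 CPM against 173.2 to 334 CPM, with Gfap, Aqp4, Slc7a10 and Gjb6 at 0, and they reached 1000 CPM in 2 members. The 10 oligodendrocyte markers summed to 528 to 1317 CPM against 1308 to 2748 CPM, with Mog, Mag, Cldn11, Opalin and Ermn at 0. The 11 neuron markers summed to 543, 547 and 505 CPM against 95.2, 87.3 and 92.8 CPM, with 6 of 11 detected in members. Fibroblast, macrophage, ependymal and blood cell markers stayed at or below 101.9 CPM in each set of members. No doublet caller was run, and the part of smooth muscle transcripts in the results below was not tested beyond leaving out the cells that reach 1000 CPM on smooth muscle or astrocyte markers.

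The arteriolar score genes mark the neighbouring segment and did not choose the members. The members' median arteriolar score was 3.81, against 2.64 in the arteriolar cells that were chosen by it, and 1 member had none of its genes. Vegfc, a lymphatic and vascular growth factor, rose in members: 243.3, 800.2 and 362 CPM against 25.8, 88.6 and 48.9 CPM in all other kept cells, a log2 fold change of 3.12 ± 0.22 (SE, edgeR adjusted p = 0.0367). Gja4, which encodes the gap junction protein connexin 37, was at 385, 289.5 and 309 CPM against 33.6, 30.2 and 12 CPM (log2 fold change 3.83 ± 0.41, edgeR adjusted p = 0.0839) and did not pass. Hey1, a Notch target, was at 202.8, 467 and 209.98 CPM against 164.6, 124.7 and 118.3 CPM and did not pass either. Of the 8 genes, 1 passed, and 3 (Vegfc, Gja4 and Gkn3) were at least 2-fold higher in each of the 3 sets.

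The first comparison set the members' summed counts against those of all other kept cells, set by set, over 10350 genes with edgeR's quasi-likelihood test and the set as a block, leaving out the 6 score genes. The 6 sums held 10917372 to 180259869 counts. The members were selected on 6 genes of the same cells, so genes that vary with these are bound to differ, and the p-values describe how steady the differences were over sets. At an adjusted p under 0.05, 8 genes rose (0.0773% of those tested) and 6 fell (0.0580%). At least 2-fold higher in 3 of 3 sets were 310 genes (3.00%), and at least 2-fold lower were 646 (6.24%). The 3 sums of members did not overlap the 3 of the others for 21.8% of the tested genes, both directions counted. The median log2 fold change of all tested genes was −0.30. DESeq2 called 690 higher and 1118 lower. Limma on mean log2 values, which weights cells equally, called 3.81% of genes higher and 1.75% lower, with a median of 0.16. Without any 1 of the 3 sets no gene passed, while 581 to 746 genes had an unadjusted p under 0.05.

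Alpl, the tissue-nonspecific alkaline phosphatase known from arterial brain endothelium, was at 1906, 1694 and 1897 CPM in members, 904, 1173 and 1546 CPM in arteriolar cells and 432, 470.4 and 431 CPM in all other kept cells. The sums of members and others did not overlap, and 95% of members had a count against 35.5% of the others. The log2 fold change against all others was 2.06 ± 0.13 (SE, edgeR adjusted p = 0.0349). Cd9, a tetraspanin of the cell surface, was at 2141, 1570.1 and 1463 CPM against 367, 292 and 279.6 CPM and rose by 2.47 ± 0.13 on the log2 scale (adjusted p = 0.0256). It had a count in 59 of 60 members and in 31.6% of the others, with a median of 1683 CPM per member.

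Cdh13, which encodes T-cadherin, a cadherin anchored to the membrane by a lipid, rose from 126.8, 112.3 and 95.7 CPM in the other cells to 919.7, 1275 and 918 CPM in members (log2 fold change 3.23 ± 0.21, edgeR adjusted p = 0.0349). Stmn2, stathmin-2, a microtubule-binding protein best known from neurons, rose from 78.9, 79.7 and 68.6 CPM to 543, 546 and 498 CPM (log2 fold change 2.82 ± 0.19, adjusted p = 0.0349). It was also in 61.7% of arteriolar cells at 279.9, 264 and 383 CPM. Stmn2 is 1 of the 11 neuron markers and made up most of their sum in members, where Snap25, Tubb3, Slc17a7, Gad2 and Nefl were at 0.

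The other 3 genes that rose were Ccnd2, Prune2 and Laptm5. Ccnd2, cyclin D2 of the G1 phase, was at 977, 875 and 859.8 CPM against 116.9, 127.96 and 92.3 CPM (log2 fold change 3.04 ± 0.18, edgeR adjusted p = 0.0313). Prune2 was at 1476, 1022 and 403 CPM against 88.5, 67.4 and 47.3 CPM (log2 fold change 3.71 ± 0.27, adjusted p = 0.0411), and was lowest in AY_Y3. Laptm5, a lysosomal membrane protein best known from blood cells, was at 732, 1049 and 735 CPM against 53.6, 50.5 and 46.9 CPM (log2 fold change 4.06 ± 0.22, adjusted p = 0.0256). It had a count in 86.7% of members, and the leukocyte gene Ptprc was at 0 in all of them.

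**Figure D3:**
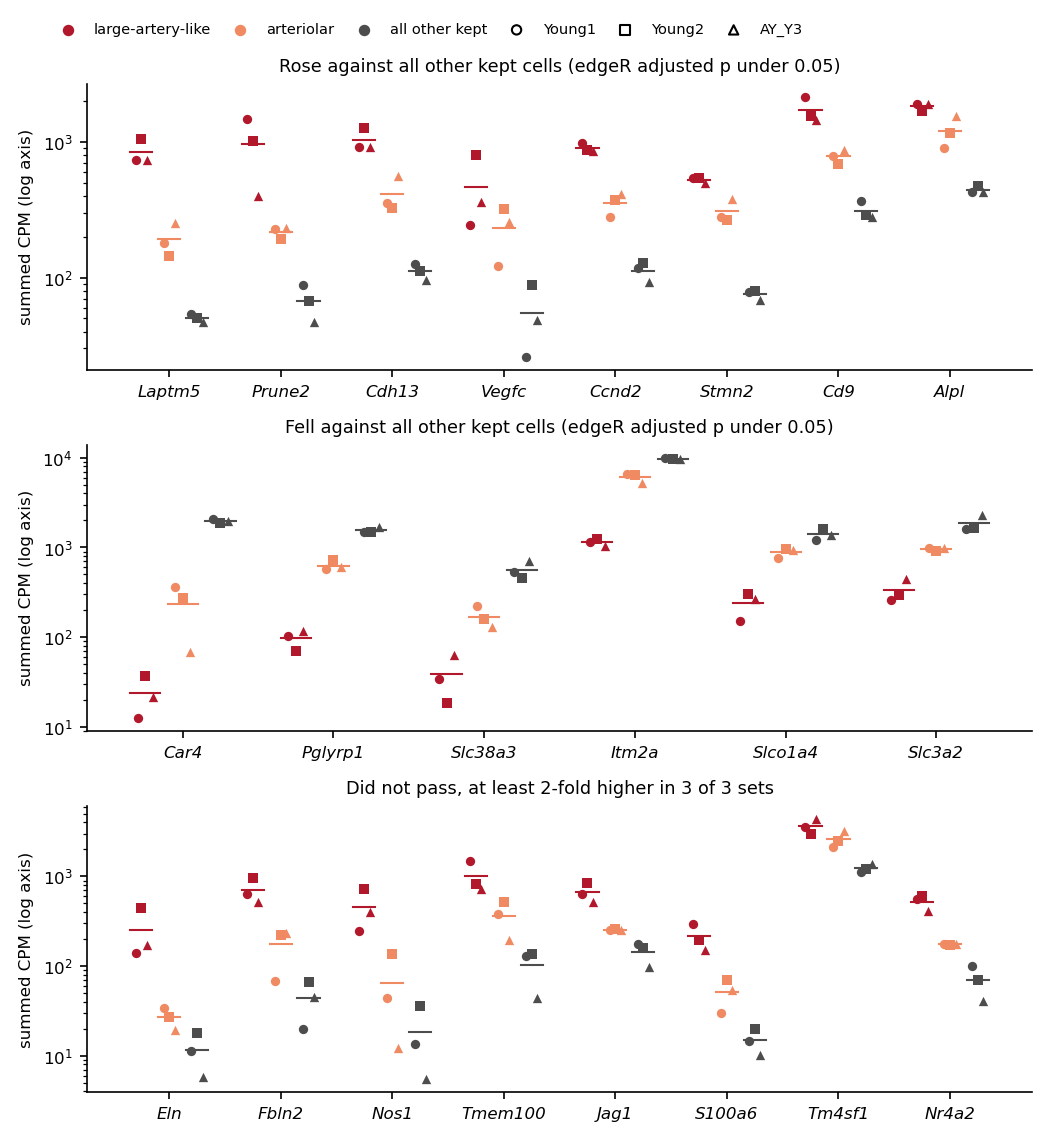
CPM of summed counts per set (points, with shapes for the sets) and the mean of the 3 sets (short lines), on a log axis, in members, arteriolar cells and all other kept cells, which include the arteriolar cells. The upper and middle panels hold the 8 genes that rose and the 6 that fell; in all 14 the members' 3 points lie on one side of those of all other kept cells, as Alpl does with a mean of 1832 ± 120.01 CPM (SD, n = 3) against 444 ± 22.5 CPM.

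Of the 24 other arterial markers that could be tested, 3 rose (Alpl, Stmn2 and Cdh13), none fell, and 12 were at least 2-fold higher in all 3 sets. Their median log2 fold change was 1.41, against −0.30 over all genes. Tm4sf1, a small membrane protein of endothelium, was at 3570.5, 2986 and 4323 CPM against 1126, 1222 and 1359 CPM (log2 fold change 1.56 ± 0.13, edgeR adjusted p = 0.052). Slc6a6, the taurine transporter, was at 6803, 7699 and 5196 CPM against 3042, 2807 and 2542 CPM (log2 fold change 1.23 ± 0.12, adjusted p = 0.0763). Neither passed. Their sums did not overlap, as for 21.8% of all tested genes.

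Several genes in the paragraphs that follow were picked after their values were seen, for the part they play in the artery wall, and not by the rule for named genes. Counts of 2-fold genes in each list are to be read beside the shares of all tested genes, 3.00% higher and 6.24% lower. Lists near these shares show nothing particular to their genes. Jag1, the Notch ligand of arteries, was at 641, 835 and 516 CPM against 175.8, 159.4 and 97.6 CPM and in 98.3% of members against 57.7% of the others. Sox17, a transcription factor of arterial identity, was at 1059.9, 619 and 884 CPM against 406, 295 and 361 CPM. S100a6, a calcium-binding protein, was at 294, 196.9 and 151.4 CPM against 14.6, 19.6 and 10.2 CPM. Their log2 fold changes were 2.24 ± 0.21, 1.27 ± 0.15 and 3.87 ± 0.39, and their adjusted p 0.0735, 0.1 and 0.0763 in edgeR, so none of them passed. Of the 18 Notch pathway genes tested none passed, 1 (Jag1) was 2-fold higher in all sets, and the median was −0.17.

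Genes of the elastic layer had the largest median of the vessel lists, those of other cell types set aside, with wide errors. Of the 8 elastic fibre and microfibril genes tested, none passed, 3 (Eln, Fbln2 and Ltbp1) were at least 2-fold higher in all 3 sets, and the median log2 fold change was 2.45. Fbln5 belongs to this family by function and is not counted here. Eln, which encodes tropoelastin, the core of elastic fibres, was at 138.9999, 448 and 173.3 CPM in members, 34.1, 27.2 and 19.1 CPM in arteriolar cells and 11.3, 17.8 and 5.84 CPM in all others. It had a count in 63.3% of members, and the median member had 41.9 CPM against 4442 CPM in the highest, which alone gave 36.5% of the Eln counts. Fbln2, fibulin-2, was at 633, 962 and 518 CPM against 19.7, 67 and 45.5 CPM and in 83.3% of members against 10.3% of the others. Ltbp1, which binds latent TGF-beta to the matrix, was at 137.5, 126.9 and 28.1 CPM against 8.51, 9.03 and 0.0467 CPM, and its relative Ltbp4 was at 887, 1746 and 1740.3 CPM against 703, 903 and 756 CPM. The log2 fold changes were 4.41 ± 0.43 for Eln, 4.13 ± 0.38 for Fbln2, 5.24 ± 1.48 for Ltbp1 and 0.85 ± 0.21 for Ltbp4, with edgeR adjusted p of 0.0763, 0.072, 0.444 and 0.368. In the cells of columns 1 to 10 alone, Ltbp1 turned to −1.42, where the median of all tested genes was −1.76.

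Of 16 tested genes for secreted matrix proteins and proteases none passed, and 4 were at least 2-fold higher and 2 at least 2-fold lower in all sets. Timp3, an inhibitor of matrix metalloproteinases, was at 2427, 4439.8 and 4463 CPM against 835, 1051 and 1025 CPM, in every member (log2 fold change 1.93 ± 0.17, edgeR adjusted p = 0.0647). Among 14 basement membrane genes none passed, with 3 higher (Lama3, Lama5 and Col18a1) and 2 lower (Sparc and Sparcl1) by 2-fold in all sets. Col18a1, the source of endostatin, was at 206.8, 137.9 and 258.2 CPM against 11.9, 31.2 and 21.5 CPM. Sparc, a collagen-binding matrix protein, was at 1048, 820.3 and 1436 CPM against 2597, 2552 and 3340.0 CPM, and Sparcl1, its relative, at 803, 726 and 681 CPM against 1641, 2176 and 2252 CPM.

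Of 24 tested genes by which endothelium sets vessel tone, none passed, 7 were at least 2-fold higher and 1 at least 2-fold lower in all 3 sets, and the median log2 fold change was 0.75. Nos1, the nitric oxide synthase best known from neurons, was at 247.2, 716 and 401 CPM in members, 44.5, 135.6 and 12.3 CPM in arteriolar cells and 13.3, 35.7 and 5.43 CPM in all others, with a count in 47 of 60 members. Nos3, the endothelial synthase, was at 242.4, 415 and 389.9 CPM against 241.3, 228.3 and 184.5 CPM, so that the lowest sum of members lay next to the highest of the others. Ptgis, prostacyclin synthase, was at 191.1, 133.8 and 207.2 CPM against 15.4, 7.68 and 6.42 CPM and in 31.7% of members against 1.4% of the others. Edn1, which encodes the constrictor endothelin-1, was at 822, 714 and 964 CPM against 376, 221.5 and 248.3 CPM. Trpv4, a calcium channel, was at 399, 162.8 and 180.3 CPM against 32.3, 66.2 and 60.2 CPM. The log2 fold changes of Nos1, Nos3, Ptgis, Edn1 and Trpv4 were 4.91 ± 0.55, 0.67 ± 0.29, 4.27 ± 0.50, 1.61 ± 0.22 and 2.16 ± 0.57, with edgeR adjusted p of 0.0849, 0.626, 0.0972, 0.141 and 0.395.

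Adm, which encodes the dilator peptide adrenomedullin, was at 0 in all 60 members and at 93.8, 89.6 and 208.2 CPM in the other cells, 12.1% of which had a count. A count of 0 in 60 cells allows a share of up to 5%. With the members set at a floor of 3 counts, the ratio of summed CPM was 1422 for Adm (edgeR adjusted p = 0.172, not passed). Reads of the same cell are not independent draws, so this ratio is no lower limit of the difference.

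Laminar flow is known to induce the KLF factors of endothelium. Of 17 laminar flow genes none passed, 2 (Ptgis and Edn1) were higher and 3 (Piezo1, Kdr and Adm) lower by 2-fold in all sets, and the median log2 fold change was 0.13. Klf2 was at 346, 357 and 240.6 CPM in members and 359.7, 347 and 253.4 CPM in the others, in every member. Klf4 was at 438, 291 and 275 CPM against 274, 337 and 293 CPM. The sums of members and others overlapped for both genes. Piezo1, a channel that opens on mechanical force, was at 0, 0.0916 and 20.8 CPM against 53.3, 29.6 and 41.7 CPM.

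Among genes of growth factor signalling, Vegfc rose, as given above, whereas Kdr, the main VEGF receptor, was at 59.8, 18 and 61.9 CPM in members against 361, 432 and 391 CPM (log2 fold change −3.24 ± 0.51, edgeR adjusted p = 0.172, not passed). Flt1, a second VEGF receptor, was at 1290.2, 1800.2 and 1925 CPM against 2469, 2657 and 2253 CPM. Nrp2, a co-receptor of VEGF-C and semaphorins, was at 0 in all members and in 13.8% of the others. Of 16 genes of this list 1 passed, 3 were 2-fold higher and 3 were 2-fold lower in all sets, and the median was 0.13. Among 21 BMP and TGF-beta genes none passed, 4 were 2-fold higher and none 2-fold lower in all sets, with a median of 0.33. Tmem100, a membrane protein downstream of BMP9 signalling in arteries, was at 1469, 826 and 720.5 CPM against 129.6, 137.9 and 44.2 CPM (log2 fold change 3.39 ± 0.34, adjusted p = 0.0763).

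Efna5, an ephrin ligand, was the one tested gene of the guidance list that no other kept cell carried. It was at 69.1, 45.7 and 64.1 CPM in members, in 11 of 60 cells, and had 0 counts in all 643 others, which allows a share of up to 0.467% of them. With those cells set at a floor of 3 counts, the ratio of summed CPM was 9196 (edgeR adjusted p = 0.288, not passed). As for Adm, this ratio is no lower limit of the difference. Efna5 passed the filter for tested genes through the members alone, so its place among the 2-fold higher genes of this list was set by them. Of the 22 guidance genes tested none passed, and 3 were higher and 2 lower by 2-fold in all sets, beside 3.00% and 6.24% of all tested genes. Sema3c, a secreted semaphorin, was at 0, 75.8 and 67.1 CPM against 539, 568 and 578 CPM.

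Of 38 S100, annexin, LIM and cytoskeleton genes none passed, 7 were at least 2-fold higher and 2 (Fhl3 and Actn1) at least 2-fold lower in all 3 sets, and the median log2 fold change was 0.33. Lmna, which encodes lamins A and C, was at 894, 742 and 549 CPM against 208.6, 183.6 and 225.3 CPM, and Crip1, a LIM protein, at 656, 508 and 595 CPM against 210.2, 199.5 and 155.8 CPM. S100a11 was in 98.3% of members and 53.5% of the others. Vim, vimentin, was at 1309, 2006 and 2489.5 CPM against 759, 758 and 945 CPM. Among 13 caveolae genes none passed, with 2 higher (Ehd1 and Ehd2) and 1 lower (Mfsd2a) by 2-fold in all sets. Cav1, the coat protein of caveolae, was at 946, 820.3 and 1303 CPM against 644, 518 and 559 CPM.

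Of 32 transcription factors of endothelial identity none passed, and 2 (Sox17 and Gata6) were higher and 1 (Nr2f2, a factor of veins) was lower by 2-fold in all sets. Among 17 immediate early genes none passed, with 2 higher and 1 lower. Nr4a2, a nuclear receptor induced by stimulation, was at 554, 600.2 and 413 CPM against 99, 70.6 and 40.7 CPM (log2 fold change 2.99 ± 0.27, edgeR adjusted p = 0.072). Among 31 interferon response genes none passed, and 1 was 2-fold higher and 1 lower in all sets. The counts of these 3 lists stand beside 3.00% higher and 6.24% lower of all tested genes.

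Of 13 capillary markers 3 fell (Itm2a, Car4 and Slco1a4), 12 were at least 2-fold lower in all 3 sets, none was 2-fold higher, and the median log2 fold change was −3.37. Itm2a, an integral membrane protein, was at 1158, 1251 and 1052 CPM in members, 6662, 6353 and 5249 CPM in arteriolar cells and 9849.5, 9699.5 and 9691 CPM in all others (log2 fold change against all others −3.07 ± 0.10, edgeR adjusted p = 0.0116). Car4, carbonic anhydrase 4, was at 12.5, 36.9 and 21.7 CPM against 2084, 1863 and 1966 CPM (log2 fold change −6.49 ± 0.44, adjusted p = 0.0349), with a count in 3 of 60 members. Pglyrp1, which binds bacterial peptidoglycan, fell to 104.1, 71 and 118.6 CPM from 1496, 1505 and 1707 CPM (log2 fold change −4.01 ± 0.19, adjusted p = 0.0256). The sums of members and others did not overlap for these 3 genes, as for 21.8% of all tested genes. Cxcl12, a chemokine, was at 348, 496 and 837 CPM against 2598, 2584 and 2821 CPM, and Spock2, a proteoglycan, at 342, 252.4 and 429.6 CPM against 1019.6, 1293 and 1009.8 CPM, without passing.

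Transporters of the blood-brain barrier followed. Of 31 solute carriers tested 3 fell, none rose, 17 were at least 2-fold lower and 1 (Slc6a6) at least 2-fold higher in all sets, and the median log2 fold change was −2.47. Slco1a4, a carrier of organic anions and thyroid hormone, was at 150.5, 305 and 267 CPM against 1204, 1616 and 1386 CPM (log2 fold change −2.58 ± 0.20, edgeR adjusted p = 0.045). Slc3a2, the heavy chain shared by large amino acid transporters, was at 263, 298 and 445 CPM against 1619, 1661 and 2283 CPM (log2 fold change −2.47 ± 0.14, adjusted p = 0.0256). Its partner Slc7a5, the L-type amino acid transporter LAT1, was at 0, 83.1 and 18.2 CPM against 361, 312 and 398 CPM, in 5 of 60 members and 83.2% of the others. Slc38a3, a glutamine transporter, was at 33.9, 18.6 and 63 CPM against 531, 459 and 714 CPM (log2 fold change −4.01 ± 0.31, adjusted p = 0.045). Mfsd2a, the lipid transporter that restrains transcytosis, was at 26.9, 29.3 and 98.6 CPM against 599.6, 481 and 742 CPM and did not pass (adjusted p = 0.0813).

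Slc2a1, the glucose transporter GLUT1, differed from this pattern. It was at 5676, 4309.6 and 11227 CPM in members and 8516, 9173 and 10947 CPM in the others, and the sums overlapped (log2 fold change −0.53 ± 0.22, edgeR adjusted p = 0.618). Members with high and with low Slc2a1 occurred together: from 0 CPM in 5 members through a median of 4790 CPM to 22274 CPM, against medians of 9113 CPM in arteriolar and 9217 CPM in the remaining cells. The 3 sets of members were also far apart, AY_Y3 being the highest. Cldn5, the tight junction protein claudin-5, was in every member, at 2424, 2193 and 3683 CPM against 3639.9, 3139 and 3976 CPM (log2 fold change −0.39 ± 0.13, adjusted p = 0.513). Of 20 junction genes 1 rose (Cdh13), and 2 were 2-fold higher and 1 lower in all sets, beside 3.00% and 6.24% of all tested genes.

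**Figure D4:**
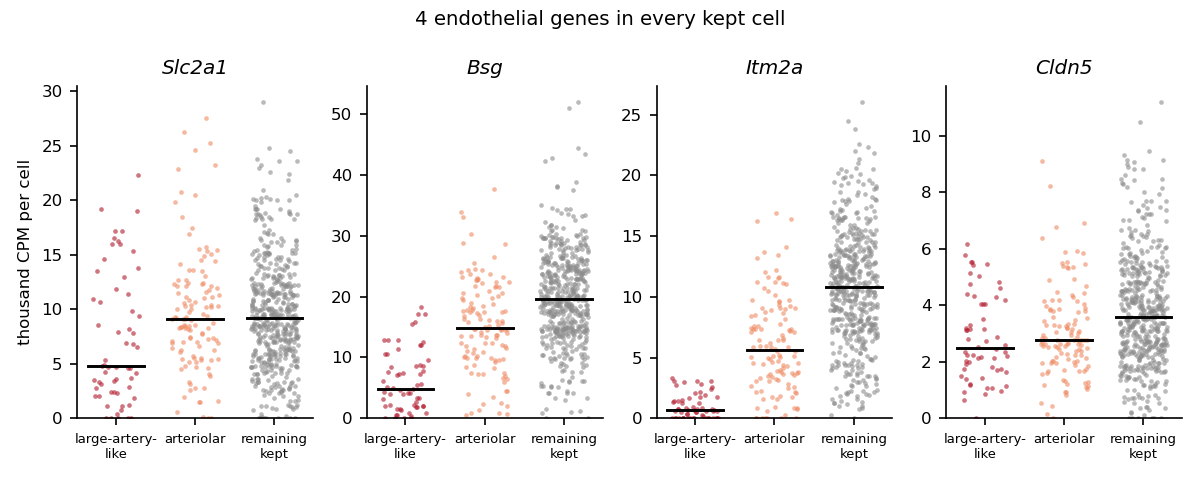
Slc2a1, Bsg, Itm2a and Cldn5 in every kept cell (points, in units of 1000 CPM per cell), for members, arteriolar cells and the remaining kept cells, with the median of each class as a line. The median of Itm2a is 683 CPM in members, 5635 CPM in arteriolar and 10822 CPM in the remaining cells, and that of Cldn5 is 2482, 2778 and 3581 CPM. Single cells of the 3 classes overlap in all 4 genes.

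Of 14 receptors of receptor-mediated uptake none passed, 8 were at least 2-fold lower and none 2-fold higher in all sets, and the median log2 fold change was −1.81. Bsg, basigin, a chaperone of lactate transporters, was at 5845, 5115 and 8229 CPM against 18696, 18099.6 and 18135 CPM (log2 fold change −1.53 ± 0.15, edgeR adjusted p = 0.0763), with no overlap. Tfrc, the transferrin receptor, was at 11.1, 46.5 and 22.3 CPM against 225.3, 224.6 and 257.5 CPM. Of 11 ABC transporters none passed, 4 were 2-fold lower and 1 higher in all sets, with a median of −1.74. Abcg2, the breast cancer resistance pump, was at 369, 233.2 and 436 CPM against 1689, 1705 and 1724 CPM (log2 fold change −2.33 ± 0.22, adjusted p = 0.0735), and Abcb1a, P-glycoprotein, at 189.4, 135.01 and 320.3 CPM against 649, 778 and 629 CPM.

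Of 14 venous markers tested against all other kept cells none passed, 7 were at least 2-fold lower in all sets, and the median log2 fold change was −2.71. Nr2f2 was at 15.1, 7.69 and 1.38 CPM against 40.7, 68.3 and 29.9 CPM, and Slc38a5, an amino acid transporter of veins, was in 1 of 60 members and 46.2% of the others. Vcam1, a leukocyte adhesion molecule that veins and large arteries can carry, went the other way, at 124.3, 213.1 and 606 CPM against 38.6, 178.1 and 142.7 CPM and in 38.3% of members against 8.71% of the others (log2 fold change 1.37 ± 0.43, edgeR adjusted p = 0.48). In the cells of columns 1 to 10 alone Vcam1 turned to −3.97. Vwf, von Willebrand factor, was at 146.8, 200.2 and 330.1 CPM against 175.5, 329 and 252.8 CPM, with overlapping sums.

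The second comparison set the members against the 120 arteriolar cells, over 10446 genes, leaving out the 6 score and 8 arteriolar score genes. It shares the members with the first. The fit held 9 sums, those of the remaining cells included, with 10917372 to 135286743 counts. At an adjusted p under 0.05 in edgeR, 0 genes rose (0% of those tested), while 371 were higher at an unadjusted p under 0.05. DESeq2 called 291 higher, and limma on mean log2 values called 1.21% of the tested genes higher. The number that fell was 5 (0.0479%). At least 2-fold higher in 3 of 3 sets were 301 genes (2.88%) and at least 2-fold lower 399 (3.82%), and the median log2 fold change of all genes was −0.11. The 3 sums of members did not overlap those of arteriolar cells for 13.5% of genes, both directions counted. Without any 1 set no gene passed, while 775 to 873 had an unadjusted p under 0.05.

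The 5 genes that fell against arteriolar cells were Itm2a, Pglyrp1, Slco1a4, Sparc and Ddc. Itm2a was at 1158, 1251 and 1052 CPM against 6662, 6353 and 5249 CPM in arteriolar cells (log2 fold change −2.44 ± 0.10, edgeR adjusted p = 0.000638), and Pglyrp1 at 104.1, 71 and 118.6 CPM against 573, 717 and 598 CPM (log2 fold change −2.74 ± 0.20, adjusted p = 0.0156). Slco1a4 was at 150.5, 305 and 267 CPM against 756, 956 and 926 CPM (log2 fold change −1.95 ± 0.19, adjusted p = 0.0472). Sparc was at 1048, 820.3 and 1436 CPM against 2063, 2071 and 2784 CPM (log2 fold change −1.13 ± 0.11, adjusted p = 0.0472). The sums of the 2 classes did not overlap for these 4 genes, which held for 13.5% of all tested genes. Ddc, the enzyme that makes dopamine and serotonin from their amino acid precursors, was at 0 in all members and at 101.2, 83.7 and 59 CPM in arteriolar cells, 25% of which had a count. With the members set at a floor of 3 counts, the ratio of summed CPM was 1028 for Ddc (edgeR adjusted p = 0.0239). That ratio is no lower limit of the difference, since a count of 0 in 60 cells allows a share of up to 5%.

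Against arteriolar cells, 2 of the 13 capillary markers fell and 8 were at least 2-fold lower in all sets, with a median log2 fold change of −2.27. The arteriolar class itself carried these markers. Their sum was 11913 CPM there, 2645 CPM in members and 21989 CPM in the remaining cells (means of 3 sets). That class is a cut by rank, down to a score of 1.47, and how many capillary-like cells it holds was not tested. Of 32 solute carriers 1 fell and 11 were 2-fold lower, with a median of −1.45. Of the 14 venous markers none passed, 1 (Vcam1) was 2-fold higher and 1 (Slc38a5) lower, with a median of 0.47. Vcam1 was at 61, 16.6 and 78.7 CPM in arteriolar cells.

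Among genes that were higher than in arteriolar cells, the elastic fibre list again had 3 of 8 members (Eln, Fbln2 and Ltbp1) at least 2-fold higher in all sets, with a median log2 fold change of 1.69. Fbln2 was at 68.1, 224.4 and 233.6 CPM in arteriolar cells (log2 fold change 2.10 ± 0.37, edgeR adjusted p = 0.219), and Eln differed by 2.98 ± 0.53 (adjusted p = 0.219). Of the 23 other arterial markers 2 (Jag1 and S100a6) were 2-fold higher, 1 (Unc5b) was 2-fold lower, none passed, and the median was 0.44. Jag1 was at 251.2, 259.02 and 251.97 CPM in arteriolar cells (log2 fold change 1.31 ± 0.27, adjusted p = 0.287). Tm4sf1 and Slc6a6 were closer, at 2121, 2476 and 3243 and 4330.0, 4239 and 5471 CPM in arteriolar cells, with log2 fold changes of 0.44 ± 0.11 and 0.43 ± 0.19. Nos1 and Ptgis were 2-fold higher in all sets, with 3.04 ± 0.84 and 3.65 ± 3.13 on the log2 scale, and Nr4a2 was at 177.2, 172.4 and 177.9 CPM.

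**Figure D5:**
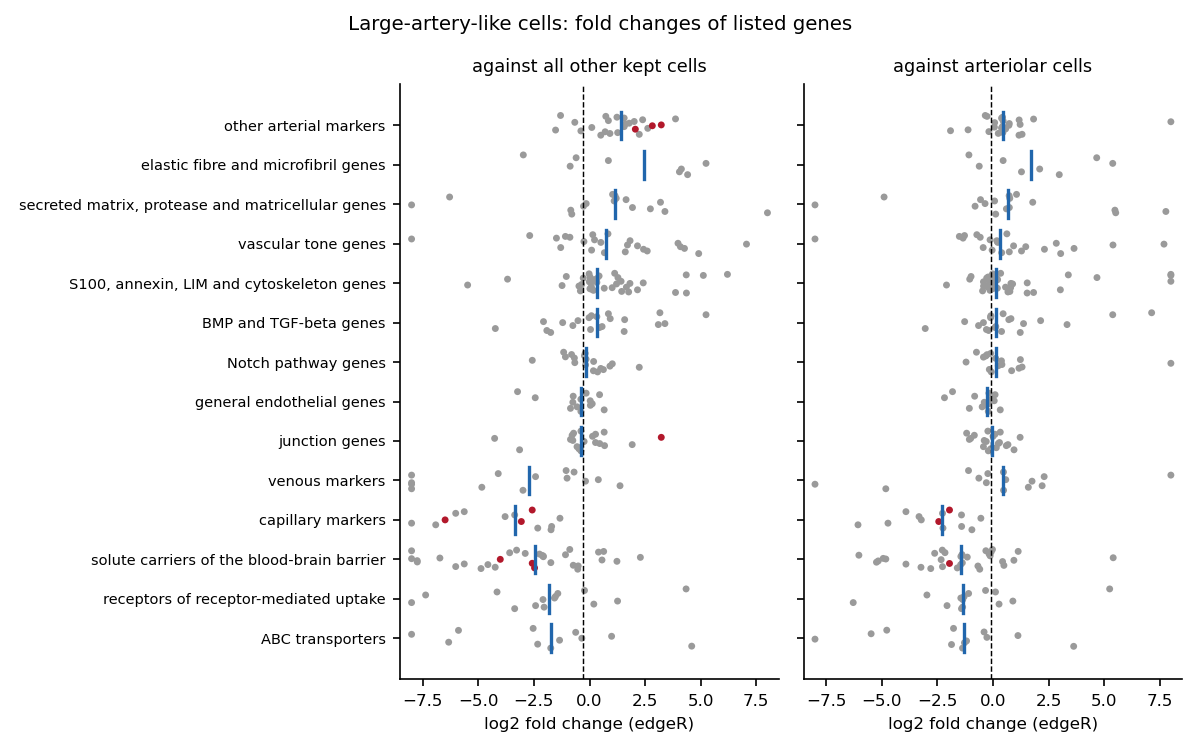
Log2 fold change (horizontal axis) of each tested gene (points) of 14 lists, against all other kept cells (left) and against arteriolar cells (right), with values beyond −8 or 8 drawn at that limit. Red points passed the edgeR test, blue bars are the medians of the lists and dashed lines those of all tested genes (−0.30 and −0.11), and Cdh13, Slc6a6 and others that stand in several lists are drawn in each.

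Within the members, 27 genes outside the score were followed over score ranks 1 to 20, 21 to 40 and 41 to 60. Their mean CPM per cell was lower at each step in 9, higher at each step in 2 and without such an order in 16. Jag1 was at 1122, 625 and 548 CPM, Gja4 at 505, 393 and 146.6 CPM and Cd9 at 2192, 1809 and 1705 CPM, lower at each step. Itm2a was higher at each step, at 815, 855 and 1277 CPM. Genes without an order included Alpl at 2026, 1720.1 and 1723 CPM, Eln at 209.2, 353 and 98.5 CPM, Vegfc at 432, 838 and 166.2 CPM and Fbln2 at 839, 312 and 659 CPM. These are descriptions over cells that share their 3 sets, along the score that chose the members. Means of 3 groups can fall in order without any trend. The share of all tested genes with such an order is not given here, so the counts show nothing particular to these 27 genes.

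Pi16 divided the members into 38 with a count (10, 12 and 16 by set) and 22 without. This split was chosen after its values were seen and gets no test, and the score genes in it are tied to each other by the choice of members. A member without Pi16 reached the limit through the other score genes. The genes below were picked after their values were seen and are given by their counts in cells, which are not replicates. The share of all genes that were higher or lower with Pi16 in all 3 sets is not given here. The genes named are thus examples and no result about Pi16. Fos, an immediate early gene, had a count in 42.1% of the Pi16-positive and 4.55% of the Pi16-negative members, at 944, 574 and 622 CPM against 0.374, 0 and 0 CPM. Fez1, an adaptor of microtubule transport, had a count in 55.3% of the Pi16-positive and 9.09% of the Pi16-negative members. Scara3, a scavenger receptor family member, had one in 55.3% of the Pi16-positive and 4.55% of the Pi16-negative members. Nr4a2 was at 671, 739 and 711 CPM against 179.1, 146.96 and 110.5 CPM. Each of these was higher with Pi16 in all 3 sets.

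Other genes were higher without Pi16 in all 3 sets. Slco1c1, the thyroid hormone carrier, had a count in 39.5% of the Pi16-positive and 86.4% of the Pi16-negative members, at 307, 215.2 and 514 CPM with and 448, 474 and 1338 CPM without. Egfl8 was at 86.9, 47.6 and 175.1 CPM with and 621, 305 and 601 CPM without. Flt1 was at 998, 1635 and 1352 and 2227, 2338 and 2508 CPM, and Mal, a raft protein known from myelin, at 513, 379 and 469 and 1253, 791 and 1412 CPM. Slc2a1 was lower with Pi16 in 2 of 3 sets, at 4679.6, 4390.1 and 5875 CPM against 8867, 4047 and 16675 CPM. Members with and without Pi16 had medians of 545658 and 513562.5 counts, and 78.9% and 54.5% of them had a column number of 11 or more. The part of that number in the split was not tested.

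With only the cells of columns 1 to 10, 2 genes passed against all other kept cells, and with only those of column 11 and up, 15 passed. Of the 14 genes that passed in all cells, 1 still passed with columns 1 to 10 and 5 with column 11 and up, and all 14 kept their sign in both. The median log2 fold change of all tested genes was −1.76 with columns 1 to 10 and −0.52 with column 11 and up. A kept sign thus says little for the 6 genes that fell. With arteriolar cells left out of the comparison, the 8 that rose had log2 fold changes from 2.87 (Alpl) to 6.83 (Vegfc). The value of Vegfc follows from the choice of cells, since Vegfc is an arteriolar score gene. Its mean over sets was 54.4 CPM in all other kept cells and 6.44 CPM in the remaining cells. Leaving out the cells that reach 1000 CPM on smooth muscle or astrocyte markers and choosing 60 members anew, 22 genes passed against all other kept cells and 12 against arteriolar cells, and 51 of the 60 members were the same. Of the genes that passed in all cells, 9 of 14 and 3 of 5 still passed.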

How the data were processed

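Single brain endothelial cells of 3-month-old mice were dissociated with a neural tissue kit and sorted by FACS, per the labels' protocols. The values are read counts per gene in whole numbers, as deposited by the authors, for 20607 gene symbols and 745 cells, 525469063 counts in all. No column was left unused, and 708 symbols had no count. Bowtie 0.12.2 and the builds mm8 and mm10 are named, without a role, in the submitters' processing notes. Counting tool, annotation and strand were not stated in the sources used here, so genes with close copies or antisense partners are uncertain. The counts have no molecular identifiers, and every interval and floor covers counting error only.

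The members, the gene lists and the tests were chosen with earlier results of these data known. Since cells are not replicates, the counts of each class were added up within each set. edgeR 4.0.16 (R 4.3.3; glmQLFit and glmQLFTest, TMM, set as a block, Benjamini-Hochberg adjusted p under 0.05) was run after its filter on low counts. The block stands for the set because every class was drawn from the same 3 sets. The first comparison left 2 residual degrees of freedom and the second 4. The test gives no SE, so the SE of a log2 fold change is its size divided by the square root of the test's F statistic. Scripts were tested on simulated data. A 2-fold difference in 3 of 3 sets was counted with a floor of 3 counts per sum. Shares of cells have exact binomial 95% intervals. Tables and figures used Python 3.11.15, numpy 2.4.6, pandas 2.3.3, scipy 1.17.1 and matplotlib 3.10.9. DESeq2 1.42.0, limma 3.58.1, other normalizations, filters, member numbers, a thinning to 50000 counts and leaving out each set were alternatives.

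The rule for named genes took, in each comparison, up to 15 genes that rose and 10 that fell most by log2 fold change, among those that passed, moved the same way in 3 sets and reached 50 CPM in the higher class. It added from each list at most 4 genes that passed and 2 that did not, by mean CPM in members. Other genes were chosen after their values were seen. Promoters came from RefSeq's table for GRCm38.p6, whose build may not be the authors'.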

Additional observations from a re-analysis of the deposited data

How the results depend on the processing

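Counts of genes that passed are given as a share of all genes tested, first against all other kept cells (14 genes, 0.135% in edgeR) and then against arteriolar cells (5 genes, 0.0479%). DESeq2 on the same sums called 17.5% and 6.68%, and limma on mean log2 values 5.56% and 1.81%. Without the replicate block the shares were 0.473% and 0.0287%. Leaving out 1 set gave 0% to 0% in both comparisons, with fewer samples in the fit. With 90 members the shares were 0.422% and 0.128%, without the cells rich in smooth muscle or astrocyte markers 0.216% and 0.116%, and with columns 1 to 10 alone, a choice made after seeing the data, 0.0198% and 0.00977%. Against all other kept cells, 20 members per set gave 0.223%, and a comparison with the cells neither member nor arteriolar gave 1.06%. Against arteriolar cells, 180 arteriolar cells gave 0.162%, 60 gave 0.0296%, 40 members gave 0.0949%, a score without Clu and Mgp 0.0963%, RLE size factors 0.0287% and a fit on 6 sums 0%. In that fit 469 genes had an unadjusted p under 0.05. The cause was not tested. Of 923 refitted fold changes of genes named with one, 921 kept their direction, and those of Ltbp1 (−1.42) and Vcam1 (−3.97) against all other kept cells turned with columns 1 to 10 alone. The refits reuse the same counts, and many of these genes were named for large differences, so a kept direction is a description and no support. The share over all tested genes is not given here. Of the members, 26.7% came from Young1, 28.3% from Young2 and 45% from AY_Y3. These parts stayed within their 95% intervals under the 6 other choices of members. With 20 members per set, parts of 33.3% were fixed by the choice, and the score on thinned counts gave the same 60 cells. The choices of 40 and 90 members are nested with the main one, so this steadiness was partly set in advance. Shares of the kept cells of a set move with the number of members chosen and are not meant here. Shares with a count of each score gene stayed within their 95% intervals under thinning. Under other choices of members, tried after seeing the data, shares outside these intervals were those of Fbln5 (92.5%), Mgp (97.5%) and Clu (100%) with 40 members and of Fbln5 (53.33%) and Fhl1 (50%) with 90, since the score sets them. Depth limits genes with few counts: a count of 0 in 60 members allows 5% of cells.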

Other observations

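Members and all other kept cells also differed in genes outside the lists, chosen after their values were seen. Olfml2a, an olfactomedin-family secreted protein, was at 151.1, 225.5 and 146.7 CPM in members and 10.8, 23 and 10.9 CPM in all other kept cells, and Marcks, an actin-binding substrate of protein kinase C, at 219.6, 362 and 128.8 CPM against 31.9, 48.6 and 20.2 CPM. Itih5, a hyaluronan-binding inhibitor heavy chain, was at 10.1, 32.6 and 81.5 CPM against 518, 709.8 and 876 CPM. None of the 3 passed the test.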
